A study of Mus musculus with 6 samples.

Results

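Semaphorins are secreted, membrane-spanning or lipid-anchored signals, plexins are their main receptors, and neuropilins are co-receptors that bind secreted semaphorins and members of the vascular endothelial growth factor (VEGF) family. A semaphorin that meets a plexin switches on the plexin's intracellular domain, which acts on small GTPases and so on the cytoskeleton and on integrins. First known from axon guidance, the system also works between immune cells: SEMA4A and SEMA4D act on lymphocytes, and plexin A1 takes part in the dealings of dendritic cells with T cells. The genes described here are the rows of a count table whose symbols are those of semaphorins of classes 3 to 7, plexins A to D and both neuropilins. They number 32 of 24421 genes in the table: 20 semaphorins, 9 plexins, 2 neuropilins and Plxna4os1, an antisense RNA that lies within Plxna4 and was caught by its symbol.

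Poly(A) RNA was sequenced from monocytes, phagocytes that are made in the marrow and circulate in blood, sorted from the bone marrow of B6 mice. The GM-CSF group held 3 libraries of cells given 5 ng of granulocyte-macrophage colony-stimulating factor (GM-CSF; no volume is stated), a cytokine that acts on myeloid cells, for 3 h. The control group held 3 libraries without it. The labels name no other agent or allele. The controls are called freshly isolated in 1 label, while the treatment protocol speaks of culture medium with or without the cytokine; time in culture and GM-CSF therefore cannot be told apart where the control cells were not cultured. Nothing in the labels ties replicates to separate mice, so the p-values measure the spread between these libraries, which may be technical.

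Gene reads ran from 16643228 to 21468929 in GM-CSF libraries and from 20782467 to 25232956 in control libraries. Levels are given as CPM, a gene's reads scaled to a common total of gene reads. All 10 listed monocyte markers were detected and tested, 2 higher and 6 lower, with Lyz2 at 21394 CPM in GM-CSF and 56025 CPM in control cells. The monocyte markers summed to 30594 to 33313 CPM in GM-CSF and 64158 to 73659 CPM in control libraries, most of it Lyz2. Markers of other cells were present at lower sums. Because 1 gene carries the monocyte sum, the sums give no order of cell numbers. Neutrophil and precursor genes (9 tested, 5 lower and 0 higher) summed to 9984 to 12748 CPM in GM-CSF and 15667 to 20889 CPM in control libraries. Endothelial genes, with Tek and Emcn at 0, summed to 2.62 to 3.00 CPM and 2.25 to 4.57 CPM. Stromal genes, with Col1a2, Pdgfra and Kitl at 0, summed to 1.86 to 2.56 CPM and 1.0 to 2.02 CPM. In bulk RNA, fewer cells of a type and less RNA per cell cannot be told apart. GM-CSF replicate 3 stood slightly apart, with correlations of log2 CPM across genes of 0.980 and 0.983 with the other GM-CSF libraries, against 0.990 between those.

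The most abundant receptor genes fell. Of the scarcer plexin genes, Plxna1 and Plxna3 rose and Plxnb3 fell, and the call of Plxna3 was lost under several alternatives. Plxnb2, Nrp1 and Sema4d, 3 of the 5 members with the most reads, each stood at less than 0.5 of their control level in GM-CSF cells, whereas Sema4a, with the most reads of all, did not pass the test. Plxna1 was 4.01-fold higher. Of the 32 genes, 6 had no read in any library, 11 had too few reads for the test and 15 were tested. Of the 15, 4 rose (Plxna1, Plxna3, Sema6b, Sema6d), 8 fell (Nrp1, Plxnb2, Plxnb3, Plxnd1, Sema4b, Sema4c, Sema4d, Plxna4os1) and 3 did not pass at an adjusted p under 0.05 (Nrp2, Plxnc1, Sema4a). The read minimum for testing can be met by 1 group alone. Sema6d and Plxna3 met it through their GM-CSF libraries, and Plxnb3 and Sema4c through their control libraries. Among all 11731 genes tested 64.0% passed, 32.8% higher and 31.2% lower, so a share of 12 in 15 is to be read against a background in which most genes moved. Upper quartile scaling turned that balance, from 51.3% to 43.0% of calls being higher (3257 higher and 4318 lower), and left the members at 4 higher and 8 lower. The median log2 fold change was -0.46 over the 15 and 0.01 over all genes tested. In 12 of the 15 no GM-CSF library overlapped a control library, which held for 69.5% of all genes tested.

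**Figure D1:**
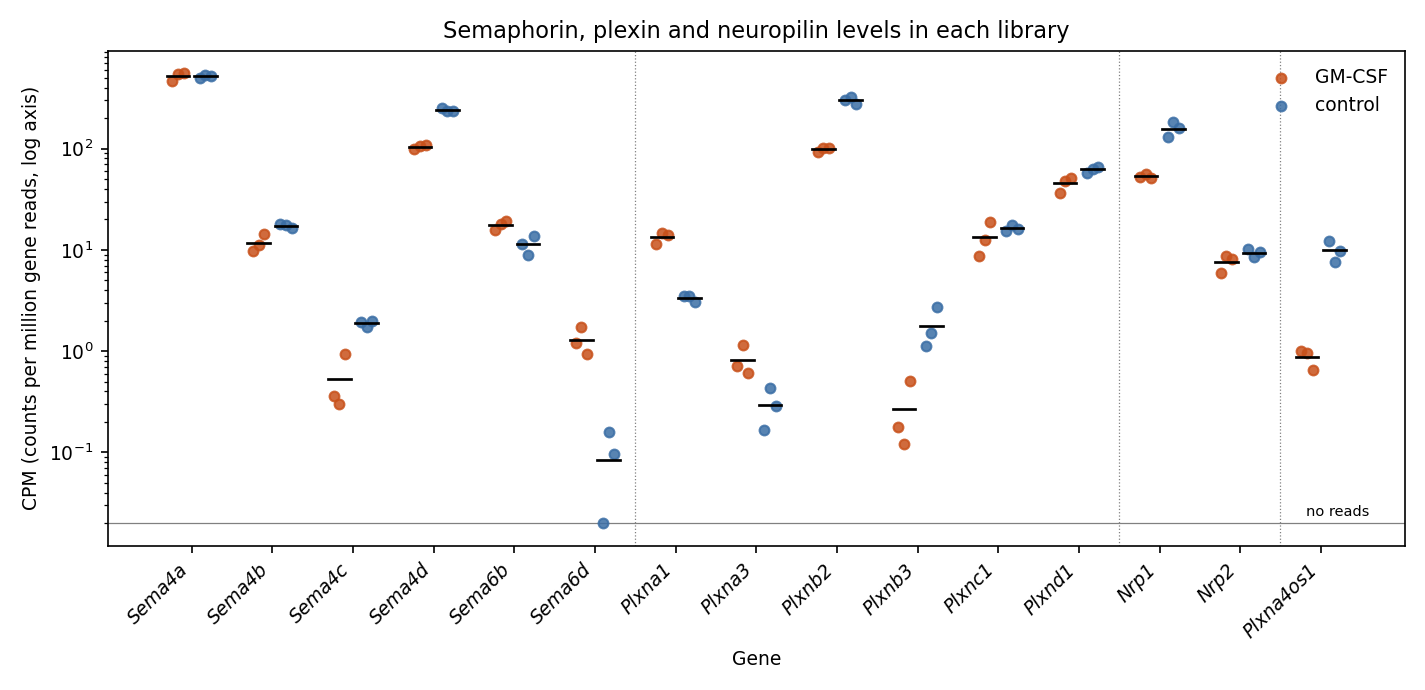
CPM of the 15 tested members in each library, on a log axis, with GM-CSF libraries left of control libraries, 1 point per library and a black line at the mean of 3; a point on the grey line marks a library with no reads. Sema4a lies between 468 and 555 CPM in all 6 libraries, Plxna1 sits higher in every GM-CSF library than in any control library, and Plxnb2, Nrp1, Sema4d and Plxna4os1 sit lower.

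Among the ligands, the class 4 semaphorins, which span the membrane, held nearly all the reads. Sema4a encodes a ligand of B and D plexins that also stimulates T cells. It stood at 468, 549 and 555 CPM in GM-CSF libraries and at 495, 533 and 522 CPM in control libraries. The groups overlapped, and the log2 fold change was 0.03 ± 0.08 (SE; edgeR adjusted p = 0.776). The sign was negative without GM-CSF replicate 3 (-0.010) and when upper quartiles set the scale (-0.091).

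Sema4d (CD100), a ligand of B plexins and of the lymphocyte receptor CD72, fell to 99.3, 106 and 108 CPM in GM-CSF libraries, against 254, 237 and 237 CPM in control libraries. The replicates lay close together within each group and far apart between groups. The log2 fold change was -1.21 ± 0.07 (edgeR adjusted p = 1.33e-07). SEMA4D is also made by lymphocytes, and B cell markers (6 tested, 2 of them lower) summed to 34.7 to 43.3 CPM in GM-CSF and 62.1 to 71.5 CPM in control libraries; their part in the fall was not tested. The T and NK cell markers summed to 169 to 195 CPM in GM-CSF and 176 to 234 CPM in control libraries, but Nkg7 alone made up nearly all of that, at 181 and 194 CPM. The other 7, among them Cd3e, Cd4 and Ncr1, each averaged less than 1 CPM in both groups.

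The other class 4 genes were scarcer. Sema4b had 9.65, 11.1 and 14.3 CPM in GM-CSF libraries against 18, 17.5 and 16.6 CPM in control libraries, a fall of modest size (log2 fold change -0.56 ± 0.15; edgeR adjusted p = 0.00841). Sema4c, whose product binds plexin B2, had 6, 5 and 20 reads in GM-CSF libraries against 47, 44 and 41 in control libraries. GM-CSF replicate 3 was the highest of its group, yet every GM-CSF library lay below every control library (-1.76 ± 0.43; edgeR adjusted p = 0.00428). Without that library the value was -2.49, and without GM-CSF replicate 2 it was -1.49. A non-coding gene on the opposite strand shares 334 exon bases with Sema4c, and without strand its reads cannot be separated. Sema4f had 1, 3 and 5 reads in GM-CSF libraries and 0, 0 and 1 in control libraries, a ratio of reads per total of 11.5 with a 95% counting interval of 1.59 to 503; with no filter it did not pass (edgeR adjusted p = 0.0993). Sema4g had 6, 1 and 8 reads against 0, 7 and 4, and its interval of 0.746 to 4.19 includes no difference. The intervals here cover counting error alone.

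Both tested class 6 semaphorins, membrane proteins that signal through A plexins, rose. Sema6b had 15.9, 18.1 and 19.3 CPM in GM-CSF libraries against 11.5, 8.88 and 13.6 CPM in control libraries. The rise was 1.58-fold (log2 fold change 0.66 ± 0.16; edgeR adjusted p = 0.0045). Sema6d, a ligand of plexin A1, met the read minimum for testing through its GM-CSF libraries alone. It had 20, 29 and 20 reads in GM-CSF libraries against 0, 4 and 2 in control libraries. These are few reads, but no control library came near the GM-CSF libraries: the log2 fold change was 3.81 ± 0.66 (edgeR adjusted p = 4.22e-04). With single libraries left out it ran from 3.25 (without control replicate 1) to 4.65 (without control replicate 2). Sema6c had 0, 2 and 10 reads against 8, 1 and 2, with no direction at this depth (ratio 1.39, 95% counting interval 0.562 to 3.48). Sema6a had no reads.

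Class 3 semaphorins, the secreted ligands, most of which need neuropilins, were near or at 0. Sema3d, Sema3e and Sema3f had no reads, and Sema3a and Sema3b had 1 and 4 reads over all 6 libraries. A count of 0 over the 3 libraries of a group allows up to 0.0547 CPM in GM-CSF and 0.0429 CPM in control cells, taking 3 reads as the limit. Sema3c had 3, 7 and 6 reads in GM-CSF libraries and 0 in every control library. It was 6.80-fold higher when the control group was set at 3 reads. It was kept out of the test by its low counts, and with no filter its adjusted p was 0.00614 (edgeR). Sema3g went the other way, with 0 reads in every GM-CSF library against 2, 3 and 5 in control libraries. It was 2.61-fold lower when the GM-CSF group was set at 3 reads (edgeR adjusted p = 0.0517 with no filter). Both folds take the reads of the other group as exact, without counting error. Among the remaining classes, Sema5a had no reads and Sema5b 1. Sema7a, the lipid-anchored ligand of plexin C1 and of beta 1 integrins, had 4, 1 and 0 reads in GM-CSF libraries against 1, 1 and 0.

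The promoters below belong to members whose change is described here, and were searched for motifs of factors that act in cytokine responses. They come from RefSeq (GRCm38.p6), 250 bases before to 50 after a transcript start, which gave 37 windows for 26 of the 32 genes. Sema6b and Plxnb2 stand for the largest rise and the largest fall at a mean log2 CPM of at least 1 among genes with a window, while Sema4d was added after its match was seen. Of the 2 starts of Sema6b, the one whose window holds a match is shown, and it too was picked for that match. Sema4d and Plxnb2 have further windows, which hold no match and are not shown. The window of Nrp1, which had the next largest fall after Plxnb2 among such genes, holds no match and is not shown either. Capitals mark the AP-1 motif TGANTCA, searched on both strands, of which no match overlapped another motif searched; Plxnb2 has none. Sema6b lies on the minus strand at chr17:56133803-56134102, Sema4d on the minus strand at chr13:51748761-51749060 and Plxnb2 on the minus strand at chr15:89180739-89181038.
Sema6b: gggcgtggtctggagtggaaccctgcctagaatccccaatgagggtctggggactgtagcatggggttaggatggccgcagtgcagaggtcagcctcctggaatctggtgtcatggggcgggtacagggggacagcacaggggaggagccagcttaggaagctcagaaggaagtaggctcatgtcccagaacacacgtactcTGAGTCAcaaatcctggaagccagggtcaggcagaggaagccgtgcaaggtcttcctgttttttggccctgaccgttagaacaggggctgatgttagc
Sema4d: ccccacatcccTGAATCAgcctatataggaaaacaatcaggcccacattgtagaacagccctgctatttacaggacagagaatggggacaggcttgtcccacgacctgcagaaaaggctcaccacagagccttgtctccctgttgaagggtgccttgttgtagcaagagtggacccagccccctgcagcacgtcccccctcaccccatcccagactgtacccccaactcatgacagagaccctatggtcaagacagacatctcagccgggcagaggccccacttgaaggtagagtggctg
Plxnb2: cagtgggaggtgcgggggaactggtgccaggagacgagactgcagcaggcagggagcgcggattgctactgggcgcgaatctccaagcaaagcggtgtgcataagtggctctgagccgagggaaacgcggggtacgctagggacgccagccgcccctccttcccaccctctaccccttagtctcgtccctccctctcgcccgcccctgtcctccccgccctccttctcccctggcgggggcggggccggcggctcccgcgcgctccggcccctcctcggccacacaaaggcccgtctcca

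The AP-1 motif was held by 3 of the 37 windows, one each of Sema6b, Sema4d and Sema4c, beside 7.81% of all 32851 promoter windows. One of these genes rose and the others fell. The STAT motif TTCNNNGAA was found in the Sema3e window alone, beside 8.30% of all windows, and the EGR motif GCGTGGGCG in the Plxna2 window alone, beside 0.612%. Sema3e had no reads and Plxna2 had 4. Such matches describe letters in these windows.

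Among the receptors, Plxnb2 led by level. Plexin B2 is a receptor for class 4 semaphorins. It had 92.5, 101 and 102 CPM in GM-CSF libraries against 299, 325 and 274 CPM in control libraries. Each GM-CSF library held less than 0.5 of the lowest control library, and the log2 fold change was -1.60 ± 0.08 (edgeR adjusted p = 5.16e-08). Plxnb3, a receptor for SEMA5A, moved the same way at a much lower level, with 3, 2 and 11 reads in GM-CSF libraries against 27, 38 and 57 in control libraries (-2.6 ± 0.56; edgeR adjusted p = 0.00184). The value was -3.50 without GM-CSF replicate 3, which had the most reads of its group. It was -2.19 without control replicate 3, the highest of the controls. Markers of megakaryocytes and platelets also peaked in control replicate 3, where their sum was 26.0 CPM. It was 2.34 to 3.22 CPM in GM-CSF libraries against 1.96 and 2.02 CPM in control replicates 1 and 2. Plxnb3 had 1.13 and 1.51 CPM in control replicates 1 and 2 and at most 0.512 CPM in GM-CSF libraries. The part of megakaryocytes and platelets in the fall of Plxnb3 was not tested. Plxnb1 had no reads in any library.

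**Figure D2:**
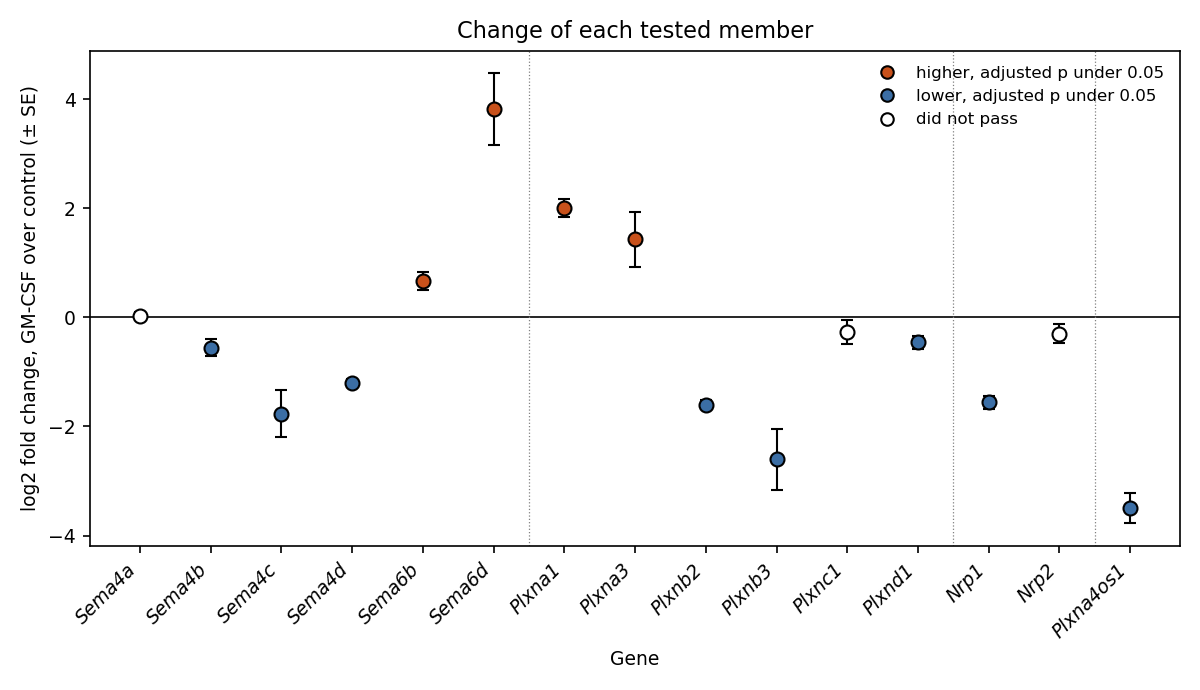
Log2 fold change of the 15 tested members, GM-CSF over control, with bars of ± 1 SE from edgeR; dotted lines part semaphorins, plexins, neuropilins and Plxna4os1. Orange points passed as higher, blue points passed as lower and white points did not pass; values run from -3.50 for Plxna4os1 to 3.81 for Sema6d.

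The A plexins, receptors for class 6 semaphorins and, with neuropilins, for class 3, were scarce in control cells. Plxna1 had 191, 246 and 303 reads in GM-CSF libraries against 84, 88 and 64 in control libraries. This equals 13.4 ± 1.80 CPM in GM-CSF and 3.36 ± 0.240 CPM in control cells (SD, n = 3 each). The rise was 2.00 ± 0.17 on the log2 scale (edgeR adjusted p = 1.76e-06). GENCODE places a non-coding gene on the opposite strand that shares 970 exon bases with Plxna1, so part of these reads may belong to it. Plxna3 had 12, 19 and 13 reads in GM-CSF libraries against 4, 11 and 6 in control libraries. Its groups did not overlap in CPM, but the call was the least secure of the 12 (1.43 ± 0.51; edgeR adjusted p = 0.0295). It was lost without GM-CSF replicate 2 (1.14), control replicate 1 (1.15) or control replicate 3 (1.40), with no filter on low counts (1.43) and with DESeq2 (1.45). Plxna2 had 2 reads in each group, and Plxna4, described as a modulator of Toll-like receptor signalling in mice, had 1 read in all.

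Plxna4os1 had more reads than the gene it lies in. This RNA of 1977 exon bases is annotated (GRCm38) on the plus strand of chromosome 6 at 32511073 to 32515576, inside Plxna4 on the minus strand, and shares no exon bases with it in GENCODE M21. It had 17, 16 and 14 reads in GM-CSF libraries against 292, 192 and 204 in control libraries. That is 1.01, 0.961 and 0.652 CPM in GM-CSF libraries against 12.2, 7.61 and 9.82 CPM in control libraries, far apart and without overlap. The fall of 3.50 ± 0.27 on the log2 scale (edgeR adjusted p = 9.71e-07) was the largest among the tested members. Without GM-CSF replicate 3 it was 3.30, less than that of Plxnb3. Since the use of strand in counting is not known, reads of this RNA and reads from the intron of Plxna4 cannot be told apart here.

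Plexin D1, a receptor for SEMA3E and SEMA4A, fell slightly. Plxnd1 had 36.7, 47.9 and 51.4 CPM in GM-CSF libraries against 57.9, 63.4 and 66.2 CPM in control libraries (-0.46 ± 0.12; edgeR adjusted p = 0.00562). Plxnc1, which encodes the SEMA7A receptor plexin C1, had 8.76, 12.6 and 18.9 CPM in GM-CSF libraries against 15.3, 17.7 and 16.0 CPM in control libraries. GM-CSF replicate 3 lay above all controls and the other GM-CSF libraries below them, so the gene did not pass (-0.27 ± 0.22; edgeR adjusted p = 0.309). Without GM-CSF replicate 3 it was called lower, at -0.60 (edgeR adjusted p = 0.00489).

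The neuropilins moved unequally. Nrp1, a co-receptor for SEMA3A and VEGF-A, had 51.9, 56.7 and 51.8 CPM in GM-CSF libraries against 129, 184 and 160 CPM in control libraries. The log2 fold change was -1.56 ± 0.12 (edgeR adjusted p = 6.56e-07). Nrp2, a co-receptor for SEMA3F and VEGF-C, had 5.90, 8.65 and 8.20 CPM in GM-CSF libraries against 10.2, 8.48 and 9.48 CPM in control libraries, which overlapped (-0.30 ± 0.18; edgeR adjusted p = 0.160). Per kb of exon, Nrp1 over Nrp2 was 10.6, 7.93 and 7.65 in GM-CSF libraries against 15.4, 26.3 and 20.5 in control libraries. With the longest single transcript as length these ratios were 16.2, 12.1 and 11.7 in GM-CSF libraries against 23.4, 40.1 and 31.2 in control libraries. Every GM-CSF ratio lay below every control ratio with either length; an exact test of 3 against 3 libraries cannot go below 0.1. NRP1 is also a marker of plasmacytoid dendritic cells in humans. All 6 listed markers of those cells had reads, 3 fell, and their summed level was 17.2 to 22 CPM in GM-CSF against 40.1 to 42.3 CPM in control libraries. Nearly all of that sum was Tcf4, at 18.3 CPM in GM-CSF and 35.7 CPM in control cells. Siglech, a defining one, had 2, 12 and 37 reads in GM-CSF libraries against 80, 62 and 71. Their part in the fall of Nrp1 was not tested.

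To set genes of different length side by side, levels were expressed as CPM per kb of exon. In GM-CSF cells Sema4a came first at 96.9, followed by Sema4d at 13.6 and Plxnb2 at 12.8, whose library ranges overlapped. Plxnd1 at 6.21 and Nrp1 at 5.46 overlapped too, and Sema6b followed at 4.47. Next came Sema4b at 2.07, Plxnc1 at 1.61 and Plxna1 at 1.48, each overlapping its neighbour. The remaining 6 lay at or below the 0.640 of Nrp2. In control cells Sema4a stood at 95.6, Plxnb2 at 38.8, Sema4d at 31.6, Nrp1 at 16.2 and Plxnd1 at 8.56, with no overlap between neighbours. Plxna1 was twelfth of 15 in control cells, at 0.371, where its library range overlapped those of its neighbours Sema4c and Plxnb3, and ninth in GM-CSF cells. These ranks depend on the length used: with the longest single transcript Sema4d came above Plxnb2 in control cells as well, at 54.1 against 46.1. In GM-CSF cells Nrp1, at 14.7, then came above Plxnd1, at 6.56, without overlap.

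The make-up of the semaphorins and of the plexins differed between the groups. Sema4a held 82.0%, 83.1% and 82.4% of the semaphorin total per kb in GM-CSF libraries against 69.7%, 72.9% and 71.9% in control libraries. Its own level did not pass the test, and Sema4d held 12.3%, 11.3% and 11.3% in GM-CSF libraries against 25.2%, 22.8% and 23.0%. The semaphorin sum was 661 ± 57.2 CPM in GM-CSF and 791 ± 8.63 CPM in control cells (SD, n = 3 each). Among plexins, Plxnb2 held 61.7%, 57.0% and 54.6% in GM-CSF libraries against 78.9%, 78.6% and 75.1% in control libraries. Plxna1 held 6.47%, 7.11% and 6.43% against 0.787%, 0.718% and 0.719%. The plexin sum was 172 ± 19.4 CPM in GM-CSF and 384 ± 25.4 CPM in control cells. Shares within a class are bound to each other, so a fall of 1 gene lifts the others.

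**Figure D3:**
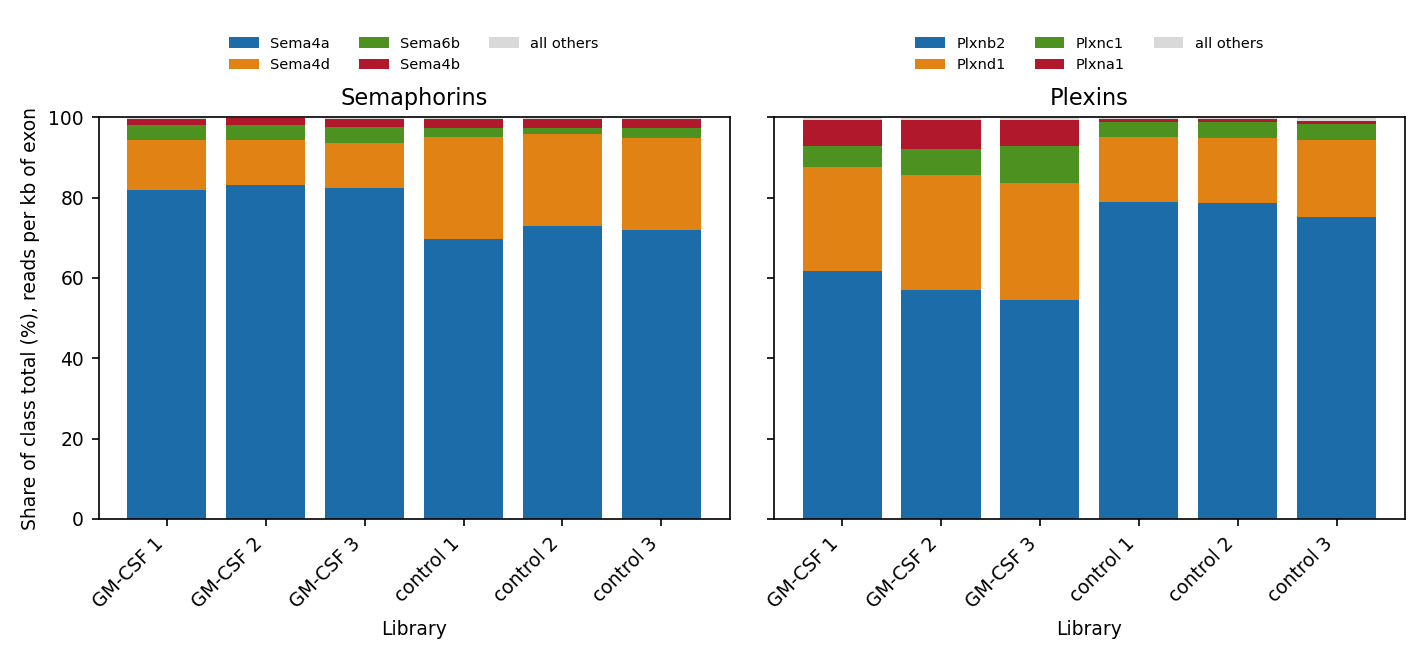
Share of the class total (%), from reads per kb of exon, of the 4 leading semaphorins (left) and plexins (right) in each library, GM-CSF libraries left of control libraries; the other genes of the class fill each bar in grey to 100%. Plxna1 takes 6.43% to 7.11% of the plexin total in GM-CSF libraries and less than 1% in control libraries, and Plxnb2 takes less in every GM-CSF library than in any control library.

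Genes of the pathway outside the 3 families were read from 5 lists. Their counts are to be set beside all genes tested, of which 64.0% passed, 32.8% higher and 31.2% lower. Of 10 tested receptors for semaphorins and co-receptors of plexins, 4 rose and 4 fell (median log2 fold change -0.05). Those that rose were Cd44, a hyaluronan receptor (1421 ± 118 CPM in GM-CSF and 373 ± 24.1 CPM in control cells; log2 fold change 1.94), Itga1 (1.39) and Itgb1 (0.98), which encode both chains of the collagen-binding integrin that also binds SEMA7A, and the VEGF receptor gene Flt1 (1.38). Those that fell were the adaptor gene Tyrobp (-0.48) and its partner Trem2 (-0.58), which act with plexin A1 in mouse dendritic cells and osteoclasts, the NRP1 partner L1cam (-0.46) and the SEMA4D receptor Cd72 (-0.90). Cd72 had few reads and its call was lost without GM-CSF replicate 3 (-0.58), control replicate 1 (-0.76) or control replicate 2 (-0.93). The genes of further VEGF receptors and of the mouse SEMA4A receptor, Kdr, Flt4 and Timd2, were not tested for want of reads.

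Of 6 tested neuropilin ligands other than semaphorins, 3 rose and 1 fell. Pgf, which encodes the VEGF relative placental growth factor, reached 44.8, 35.5 and 25.1 CPM in GM-CSF libraries against 0.333, 0.238 and 0.241 CPM in control libraries. The log2 fold change was 6.99 ± 0.30 (edgeR adjusted p = 1.28e-08). Pgf had 8, 6 and 5 reads in control libraries and met the read minimum for testing through its GM-CSF libraries alone. Vegfa had 95.8, 53.0 and 49.2 CPM in GM-CSF libraries against 18.7, 15 and 20.2 CPM in control libraries (1.89 ± 0.24; edgeR adjusted p = 3.71e-05). Tgfb1, reported as a neuropilin ligand as well, rose by 1.29 on the log2 scale. Pdgfb fell by 1.40 at a low level, a call that was lost without control replicate 1 (-1.36) or 3 (-1.21). It met the read minimum for testing through its control libraries.

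Of 17 tested GTPases and exchange factors, 4 rose, 4 fell and 9 did not pass (median -0.22). That is a smaller share passing than the 64.0% of all genes tested. Rras, a RAS-like GTPase that plexins inactivate, fell to 24.0 ± 2.70 CPM in GM-CSF cells, against 85.2 ± 5.34 CPM in control cells (SD, n = 3 each; log2 fold change -1.82). Its relative Rras2 rose to 11.9 ± 0.944 CPM, against 2.62 ± 0.340 CPM in control cells (2.19). Rnd3 (-1.41), Rnd1 (-0.63) and Rac2 (-0.74) fell, and the RAC exchange factor Tiam1 (0.59), Rap1a (0.22) and Arhgap35 (0.74) rose. Of these, the calls of Rnd1 and Rap1a were each lost when any of 4 single libraries was left out, and that of Arhgap35 with any of 3. The call was lost for Rap1a (0.10) and Arhgap35 (0.62) with upper quartile scaling too. Rac1 (0.09) and Rhoa (0.03), the GTPases through which plexins reach the cytoskeleton, did not pass.

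Of 16 tested kinases and effectors, 7 fell, 2 rose and 7 did not pass (median -0.21), beside 64.0% of all genes tested passing. The tyrosine kinase gene Fyn, which acts downstream of SEMA3A in neurons, rose to 138 ± 11.5 CPM in GM-CSF cells, against 31.1 ± 2.14 CPM in control cells (log2 fold change 2.16), and Pak2 rose by 0.55 on the log2 scale. Dpysl2, which encodes the semaphorin mediator CRMP2, had 22.3, 20.4 and 6.43 CPM in GM-CSF libraries against 59.8, 57.5 and 49.0 CPM in control libraries (-1.77). GM-CSF replicate 3 was the lowest, and without it the value was -1.36. Fes (-1.14), Pak1 (-0.96), Cdk5 (-0.77), Ptk2b (-0.59), Limk2 (-0.54) and Mical1 (-0.23) fell as well.

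Of 6 tested proteases listed for cutting semaphorins or their precursors, 4 rose and 1 fell. Adam10 rose by 0.63 and Adam9 by 1.09 on the log2 scale. Mmp14, a membrane-bound metalloprotease that releases SEMA4D, rose to 2.13 ± 0.347 CPM in GM-CSF cells, against 0.473 ± 0.269 CPM in control cells (2.16). It met the read minimum for testing through its GM-CSF libraries. Furin, the proprotein convertase that cleaves class 3 semaphorins, had 64.6, 72.4 and 186 CPM in GM-CSF libraries against 27.4, 34.8 and 29.7 CPM in control libraries. Its value of 1.82 rested in part on GM-CSF replicate 3 and was 1.17 without it. Pcsk7 fell (-0.32), and Adam17 stood at 0.17 and did not pass (edgeR adjusted p = 0.0669). The lists were read against the same background of 64.0% of all genes passing, and their genes were not tested as sets.

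**Figure D4:**
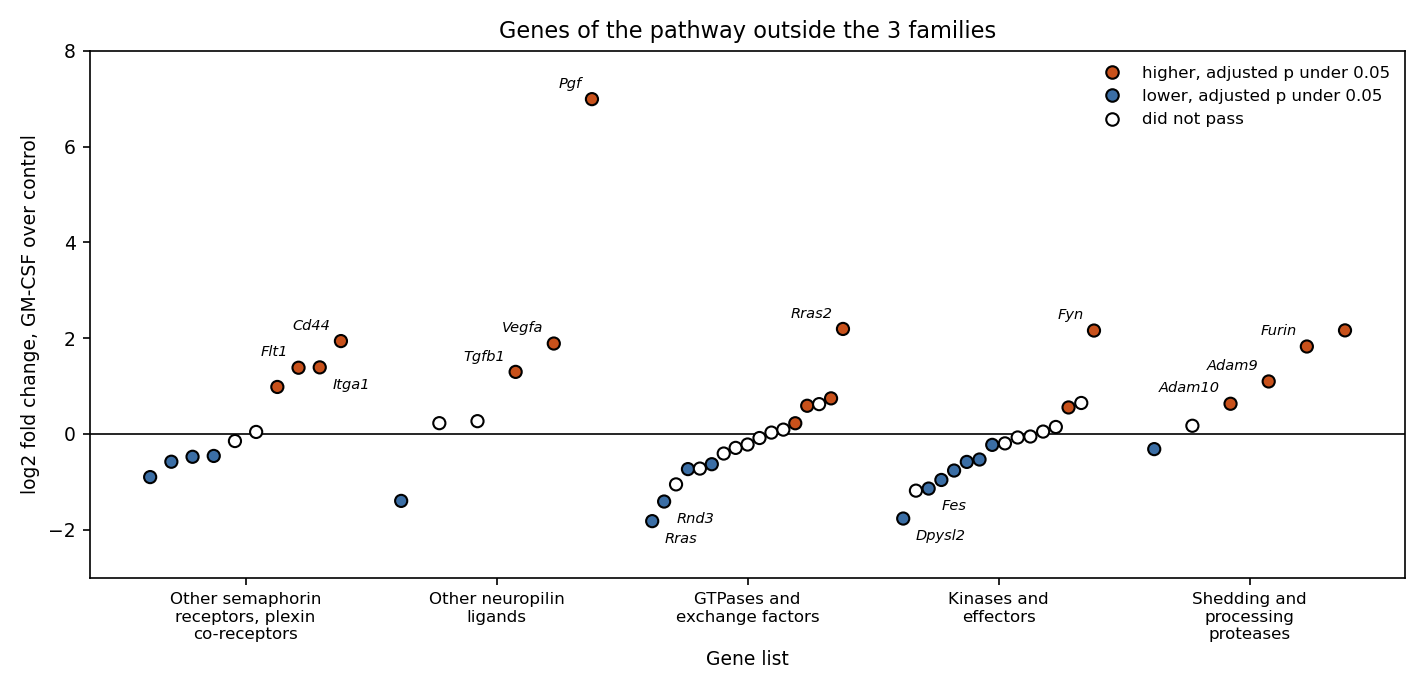
Log2 fold change, GM-CSF over control, of each tested gene in 5 lists of the semaphorin pathway, sorted within each list, with the 3 genes of the largest change at a mean log2 CPM of at least 1 named. Orange points passed as higher, blue as lower, white did not pass; Pgf stands at 6.99 and all others lie between -1.82 and 2.19.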

How the data were processed

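Raw read counts per gene symbol were deposited by the authors in 1 table with a column per sample, matched here by sample title. Per the submitters' processing notes, the build was mm10 and the tools included HTSeq 0.6.1p1, STAR 2.5.2a, Trim Galore 0.4.4 and edgeR, each without a role; annotation and strand setting were not given in the sources used here. Rows naming no gene were left out: no feature (7.82% to 9.72% of counted reads), ambiguous (1.44% to 1.53%) and not unique (18.0% to 19.6%).

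Counts were tested across the whole table in R 4.3.3 with edgeR 4.0.16: TMM, filterByExpr (minimum count 10, minimum total 15), and glmQLFTest, its quasi-likelihood test, two-sided and on group alone, which kept 11731 genes. Adjusted p-values are Benjamini-Hochberg over all of them, and "rose", "fell" and "passed" mean under 0.05. Log2 fold changes are GM-CSF over control; SE is the absolute log2 fold change over the root of F. CPM uses the total of gene counts. The steps were also run on simulated counts in which 200 genes changed. Far more genes passed in the real data, so that run cannot show how the steps do where most genes move. Lengths and coordinates are from GENCODE M21 (GRCm38, the assembly of mm10), which matched all 32 members. Members and lists were chosen with earlier results of these data known. Pathway genes named are the 3 largest changes per list among those with a mean log2 CPM of 1 or more, and every gene of a direction taken by 5 or fewer; others named were chosen after their values were seen. Alternatives were other scalings, filters, a robust prior, a replicate block, each library left out, removal of abundant genes, limma-voom (limma 3.58.1) and DESeq2 1.42.0. A planned comparison of protein sequences was not made.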

Additional observations from a re-analysis of the deposited data

How the results depend on the processing

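Of the 12 calls among the members, 11 kept their direction and stayed past the threshold under every alternative in which the gene was tested, and Plxna3 did not; Sema4a, not called, turned to -0.091 when upper quartiles set the scale and to -0.010 without GM-CSF replicate 3, the lower end of -0.010 to 0.093 over the libraries left out. Upper quartile scaling moved the median of all genes by -0.12 on the log2 scale. A minimum of 1 CPM in at least 3 libraries left 2 members higher, because Plxna3 and Sema6d were not tested under it. With no filter 4 members were higher, Sema3c in place of Plxna3, and DESeq2 called 3 higher. Leaving out 1 library gave 3 to 4 members higher and 8 to 9 lower, and 5 to 8 changed genes in the list of GTPases and exchange factors, the lowest without control replicate 3. Deviations of same-numbered libraries from their group means correlated at 0.0727, 0.00984 and 0.0038, and only replicate 1 of each group correlated best with its own number. With 3 libraries per group, such weak correlations cannot decide whether the replicate number pairs the samples. With a replicate block 4 members were higher and 8 lower, as without it, and 3848 and 3645 genes of the whole table, against 3851 and 3660. With TMM-scaled totals all 30 levels per kb moved by less than 1 SD, and with the longest single transcript 15 of 30 moved by more. Of the 17 members outside the test, 6 had no read, and depth gives the others wide counting intervals or none.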
